A study of Mus musculus with 25 samples.

Results

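Of the 96405 distinct DNA fragments that at least 1 of 6 protein pairs marked by split DamID (SpDamID) on the 19 autosomes and the X chromosome of mouse mK4 cells, 2904 were marked by all 6 pairs. A fragment counted as common when the same chromosome, start and end stood in each of the 6 deposited lists. mK4 cells come from the metanephric mesenchyme of the mouse embryo. The libraries carried, by their titles, N1-D with RBP-AM-Ert2, MAML-AM-Ert2 or p300-AM-Ert2 (3 libraries each), N1-D with N1-AM-Ert2 (2 libraries), Mef2c-D with MAML-AM-Ert2 and Mef2c-D with p300-AM-Ert2 (1 library each), and each was scored against Dam (3 libraries). Open chromatin came from FAIRE of N1wt cells (3 libraries, 1 input library, and 3 control FAIRE libraries), and N1 binding from ChIP through a myc tag (1 library, with 1 input library). The strain label was CD2 for 1 N1/N1 library and CD3 for the Mef2c/MAML library, against CD1 for the rest. The labels state no clone number, dose or time.

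In SpDamID, the adenine methylase Dam is divided into inactive pieces carried by a pair of proteins, and methylation of GATC sites records where the pair came together. Methylated DNA is then released by DpnI, which cuts methylated GATC, so each mark is a fragment between such sites. N1 (Notch1) is a receptor whose cleaved intracellular domain enters the nucleus. RBP holds the Notch complex on DNA, MAML is the co-activator that docks on N1 and RBP together, and p300 is an acetyltransferase recruited through MAML. N1/N1 was made to read out Notch dimers. Mef2c is a MADS-box transcription factor that is known to work with MAML and p300 without Notch. Methods that map proteins by proximity or cross-linking often return places where many unrelated factors are recovered together, usually in open chromatin. The 6 lists share their Dam control and their map of fragments, and the part of these in the overlap was not tested.

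Presence in the lists chose these fragments, so the list sizes and scores that follow are a description without a test. The common fragments were a small part of every list. They made up 10.3% of the 28281 N1/RBP fragments, 17.6% of the 16545 N1/MAML fragments, 12.99% of the 22358 N1/p300 fragments and 9.09% of the 31936 N1/N1 fragments. They made up 5.76% of the 50380 Mef2c/MAML fragments and 10.1% of the 28757 Mef2c/p300 fragments. Together they covered 1.66 Mb, against 74.5 Mb for the fragments in 1 to 5 lists. The longest single fragment in 1 to 5 lists took up 3002119 bp of that.

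Common fragments stood high in the lists of most pairs. Their median deposited score was 540 in N1/RBP, against 308 for the other fragments of that list. Common fragments had a median of 491 in N1/MAML, against 339 for the others, 528.5 in N1/p300, against 312 for the others, and 498 in N1/N1, against 264 for the others. In Mef2c/MAML the common fragments had a median of 574 and the others 334. Mef2c/p300 separated them least, with 369 for common fragments and 273 for the others. The median common fragment lay at the 89.998th percentile of the Mef2c/MAML list and the 88.4th of the N1/RBP list, but at the 71.6th of N1/MAML and the 66.6th of Mef2c/p300. Common fragments took 46.9% of the highest-scoring 10% of N1/RBP and 42.2% of that of N1/p300, and 17.3% of that of Mef2c/p300.

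**Figure D1:**
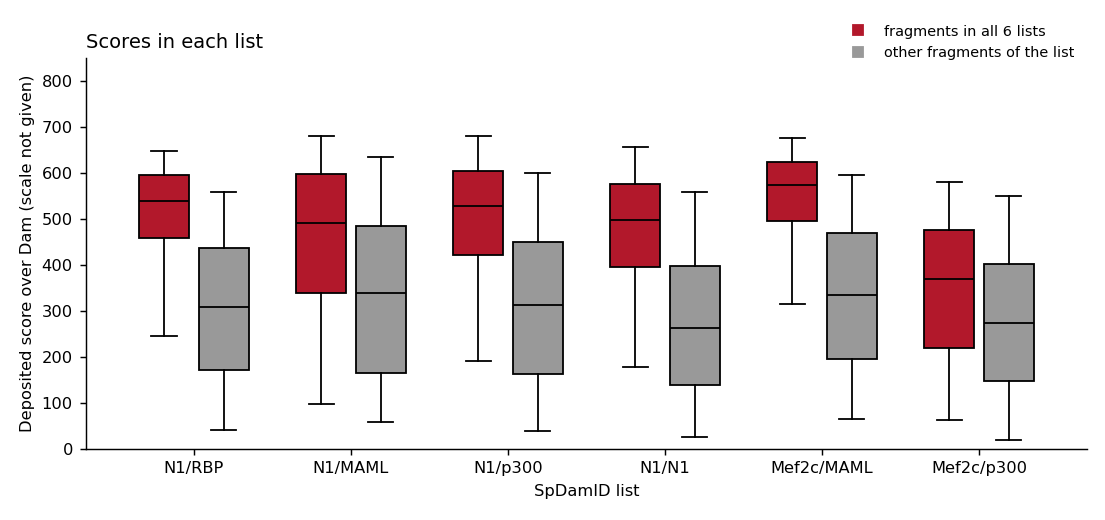
Deposited scores over Dam (vertical axis, in the authors' own units) for fragments in all 6 lists (red, left of each pair) and the other fragments of the same list (grey). Boxes run from the 25th to the 75th percentile with the median as a line, and whiskers from the 5th to the 95th percentile; the red median is above the grey one in each of the 6 lists, by most in Mef2c/MAML (574 and 334) and N1/N1 (498 and 264) and by least in Mef2c/p300 (369 and 273).

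Most common fragments did not score high in every list at once. List by list, the share at or above the list median ran from 65.7% in Mef2c/p300 to 93.3% in Mef2c/MAML. Of the 2904 fragments, 1127 (38.8%) were at or above the list median in all 6 lists, and 72 were in the upper 10% of all 6. The list that ranked a fragment lowest was Mef2c/p300 for 1165 fragments (40.1%) and N1/MAML for 848 (29.2%). A score under 50 in at least 1 list was found for 263 fragments, so presence of these rests on a low score. Just outside the rule stood the 4454 fragments in exactly 5 lists, of which 2415 lacked Mef2c/p300, 1395 lacked N1/MAML, 275 lacked N1/p300, 169 lacked N1/N1, 109 lacked N1/RBP and 91 lacked Mef2c/MAML. Their median scores in the lists that held them were 449 in N1/RBP, 465 in N1/MAML, 429 in N1/p300, 385 in N1/N1, 500 in Mef2c/MAML and 348 in Mef2c/p300, each below that of the common fragments.

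Within the common fragments, scores of all pairs of N1 lists moved together, and Mef2c/MAML scores moved with those of N1/MAML. Spearman's rho over the 2904 fragments ran from 0.36 to 0.56 among the N1 lists, with the highest value for N1/p300 with N1/N1. Mef2c/MAML scores followed those of N1/MAML, the list with the same co-activator, at 0.46, those of N1/p300 at 0.20, and those of N1/RBP and N1/N1 at 0.04 and 0.02. Mef2c/p300 gave 0.27 with Mef2c/MAML, 0.27 with N1/N1, 0.20 with N1/p300, 0.20 with N1/RBP and 0.00 with N1/MAML. Over the other fragments that both lists held, rho was 0.33 for Mef2c/MAML with N1/MAML and 0.15 to 0.35 among the N1 lists. It was 0.14 and 0.11 for Mef2c/MAML with N1/RBP and N1/N1, and 0.01 for Mef2c/p300 with N1/MAML. These pairs had a higher rho there than in the common fragments, and every other pair a lower one. These values describe fragments scored over the same Dam libraries, which are not independent points, and carry no test.

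The fragments with the best mean percentile over the 6 lists had scores between 578 and 765 in every list. Coordinates are of build mm9 throughout, and no annotation of that build was used, so genes at these places are not named. The highest mean percentile, 99.3, belonged to chr11:62363579-62364003. It scored 676 in N1/RBP, 760 in N1/MAML, 735 in N1/p300, 686 in N1/N1, 713 in Mef2c/MAML and 579 in Mef2c/p300. It lay in a total FAIRE region, chr11:62362998-62366649, that the authors gave a MACS score of 813.58, but in no Notch-dependent or ChIP region.

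Next came chr6:31038676-31039093, with 622, 765, 759, 710, 702 and 578 in the same order of lists. Among the leading 10 it alone lay in Notch-dependent FAIRE, in a region with a MACS score of 129.25 in that list and 251.24 in the total list. The fragment chr17:75269239-75269871 was at or above the 97.8th percentile in every list, the highest such minimum of all 2904, with 675, 683, 684, 709, 654 and 619. The fragment chr6:88527850-88528451 had the highest Mef2c/p300 score of any common fragment, 736, and was the only one of the leading 10 in N1 ChIP, at 38.97 times the fixed input value. It lay outside FAIRE. Open chromatin by total FAIRE held 7 of the leading 10, where it held 63.5% of all 2904 common fragments. The Notch-dependent list held 8.99% of all common fragments, and the ChIP list 2.89%. Whether the leading 10 differ from the other common fragments in these shares was not tested.

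The fifth, chr13:28830611-28831270, scored 705 in N1/RBP, 685 in N1/MAML, 741 in N1/p300, 701 in N1/N1, 634 in Mef2c/MAML and 612 in Mef2c/p300, inside a total FAIRE region with a MACS score of 216.12. The ninth, chr19:57068688-57069176, had the highest N1/RBP score of the 10, 714, and also 646 in Mef2c/p300. Near the top in every list but outside the leading 10 were chr3:159548032-159548499, with no percentile under 97.1, and chr3:95097369-95097810, in a FAIRE region with a MACS score of 646.35. All 4 of these lay in total FAIRE only.

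At the other end, the common fragment with the lowest mean percentile, 26.5, was chr4:138019352-138020087. Its scores were 257 in N1/RBP, 144 in N1/MAML, 47 in N1/p300, 93 in N1/N1, 317 in Mef2c/MAML and 209 in Mef2c/p300. It lay in a total FAIRE region, with a MACS score of 108.63. Of the 5 lowest, 3 lay in total FAIRE and 0 in Notch-dependent FAIRE or ChIP. Among all 2904 common fragments these shares were 63.5%, 8.99% and 2.89%.

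Openness took no part in the rule that chose the fragments, so it was tested. The classes and tests were, however, set with earlier results of these data known. FAIRE recovers nucleosome-depleted DNA that stays free of protein after cross-linking. Of the 2904 common fragments, 1845 overlapped a total FAIRE region, 63.5% ± 1.19 (SE over 5 Mb blocks of the genome), where 19.3% of all 96405 fragments did. The share was 18.0% ± 0.345 for the fragments in 1 to 5 lists, 45.6 ± 1.07 points less (linear model with errors clustered on 538 blocks, 95% interval 43.5 to 47.7), a difference of 42.6 SE. It was 51.5% ± 0.931 for the fragments in exactly 5 lists, which the common fragments exceeded by 12.03 ± 1.19 points (n = 538 blocks, adjusted p = 1.86e-23). It was 53.4% ± 2.88 for the 320 fragments in all 4 N1 lists and no Mef2c list, which they exceeded by 10.1 ± 3.05 points (n = 538 blocks, adjusted p = 0.00181). Adjustment was by Benjamini-Hochberg over the 21 main tests. For an alternative setting, its p-values took the place of their main values among those 21. The alternatives were not adjusted among themselves. Each list is pooled over its libraries, so these errors cover the spread along the genome and not that between libraries. The last difference did not hold without FAIRE regions above the 95th percentile of length, where it was 4.12 points (n = 538 blocks, adjusted p = 0.214), nor at an equal mean N1 score percentile, where it was 4.45 points (n = 480 blocks, adjusted p = 0.169).

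The share of open fragments grew with the number of lists. It was 10.3% ± 0.228 for fragments in 1 list, 20.5% ± 0.505 for 2, 33.9% ± 0.695 for 3, 41.4% ± 0.858 for 4, 51.5% ± 0.931 for 5 and 63.5% ± 1.19 for 6. It also grew along the N1 lists alone. Fragments in both Mef2c lists lay in total FAIRE in 7.26% ± 0.397 of cases with no N1 list, 20.4% ± 0.971 with 1, 31.9% ± 1.28 with 2, 44.3% ± 1.26 with 3 and 63.5% ± 1.19 with all 4. At 3 N1 lists the shares with 2, 1 and 0 Mef2c lists were 44.3% ± 1.26, 45.8% ± 0.982 and 44.7% ± 1.33. At 4 N1 lists the same 3 classes gave 63.5% ± 1.19, 57.1% ± 1.19 and 53.4% ± 2.88. Both FAIRE lists come from N1wt cells, so openness in cells with the Mef2c fusions is unknown.

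**Figure D2:**
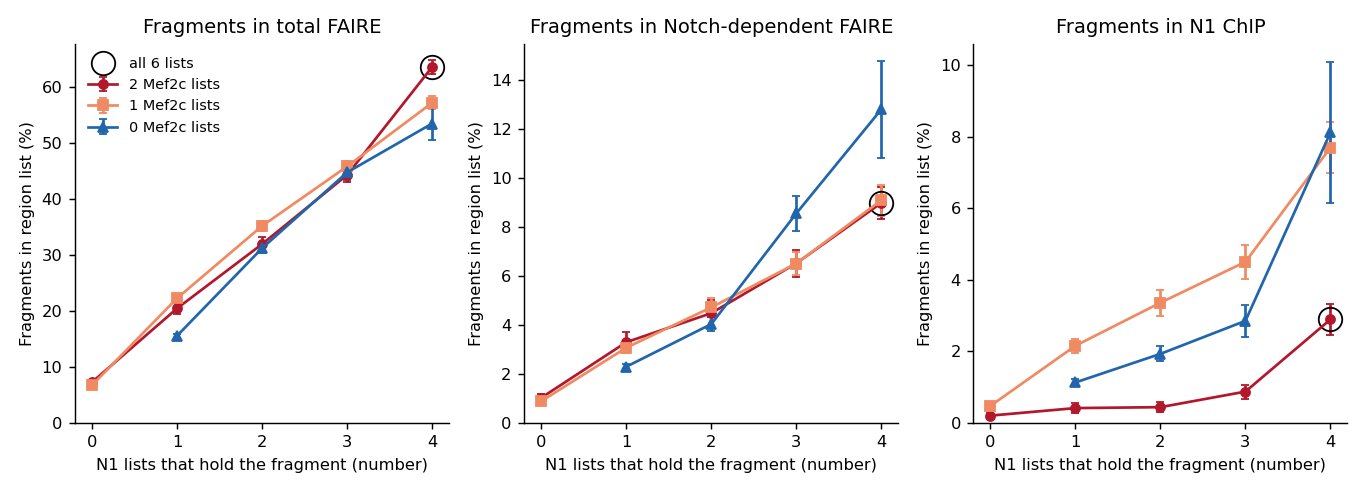
Percent of fragments that overlap total FAIRE (left), Notch-dependent FAIRE (middle) and N1 ChIP (right) against the number of N1 lists that hold the fragment, with 2, 1 or 0 Mef2c lists as separate lines; error bars are SE over 5 Mb blocks and the ring marks the fragments in all 6 lists. Total FAIRE rises along the N1 axis on all 3 lines, to 63.5% in the ring, while N1 ChIP stays lowest on the line with both Mef2c lists, at 2.89% in the ring.

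Openness was centred on the common fragments. At the centre of the fragment, 55.2% of common fragments lay inside a total FAIRE region, against 42.9% of fragments in exactly 5 lists, 39.7% of those in the 4 N1 lists alone and 5.75% of fragments in 1 list. At 1000 bp to either side the share was 21.8% for common fragments and 18.0% for those in 5 lists, and at 5000 bp it was 4.89% and 4.30%. Of the 1845 open common fragments, 1122 (60.8%) lay wholly inside total FAIRE, against 54.2% of open fragments in 5 lists and 21.6% of those in 1 list.

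**Figure D3:**
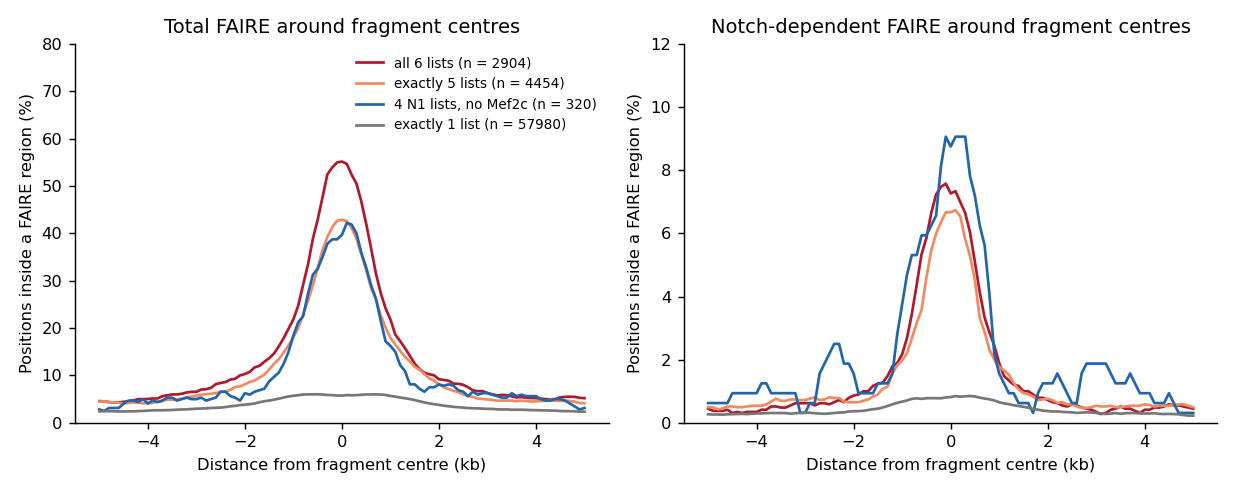
Percent of positions inside a total FAIRE (left) or Notch-dependent FAIRE region (right) against the distance in kb from the fragment centre, in steps of 100 bp, for 4 classes of fragments. The common fragments peak at 55.2% in total FAIRE, above the other 3 classes, and at the centre the Notch-dependent list holds 7.27% of them and 8.75% of the 320 fragments in the N1 lists alone, whose small number makes that line ragged.

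A part of the common fragments was not open by this measure. The 1059 outside total FAIRE lay a median of 12468 bp from the nearest FAIRE region. Of these, 37.4% were within 5 kb of one and 239 (22.6%) were over 50 kb away. For fragments in 5 lists the shares were 37.3% and 21.6%. In all, 1040 common fragments (35.8%) lay in neither FAIRE list nor N1 ChIP, among them the sixth and the seventh in rank, chr16:21381706-21382484 and chr13:40670493-40671036.

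Seen from the open regions, those with a common fragment were longer and had higher scores, and the score differences were smaller at equal length. Of the 19353 total FAIRE regions, 1664 held a common fragment (8.6%), and 201 of the 1664 held more than 1. Their median MACS score was 204.645, against 162.39 for the 10359 regions with fragments in 1 to 5 lists only and 140.11 for the 7330 regions with no SpDamID fragment. A common fragment was found in 12.98% of regions in the upper 25% by score and 5.13% in the lower 25%. Longer regions also scored higher, with a median length of 1209 bp for regions with a common fragment, 956 bp for those with other fragments and 806 bp for those with none. At equal length, regions with a common fragment scored 0.07 ± 0.02 higher on the log2 scale than those with other fragments (linear model, n = 523 blocks, adjusted p = 0.00296). Against regions with no fragment the difference at equal length was 0.05 ± 0.02 and did not pass (n = 523 blocks, adjusted p = 0.0514), while without the length term it was 0.47 and passed. It also passed on the autosomes alone, at 0.05, and with presence taken from the list median up, at 0.08. The open regions with the most common fragments were chr5:143573553-143585995 and chr19:5841415-5849885, with 5 each and MACS scores of 992.29 and 875.96.

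Notch-dependent open regions, the FAIRE peaks that the authors listed apart, were next compared with the rest. How these peaks were selected is unknown here, so a share in that list says only that the fragment overlaps a peak the authors put there. Of the common fragments 261 overlapped one, 8.99% ± 0.64, where 2.8% of all fragments did. The share was 2.60% ± 0.0916 for fragments in 1 to 5 lists, 6.38 ± 0.619 points less (n = 538 blocks, adjusted p = 3.94e-24). It was 7.97% ± 0.438 for fragments in 5 lists, with a difference of 1.02 points and a 95% interval from -0.333 to 2.37 (n = 538 blocks, adjusted p = 0.163). It was 12.8% ± 1.97 for fragments in the 4 N1 lists alone, with a difference of -3.82 points and an interval from -7.68 to 0.0321 (n = 538 blocks, adjusted p = 0.0642). Both calls depended on the setting. The difference from fragments in 5 lists passed under 5 alternatives, at 1.26 to 2.22 points, and that from the N1 lists alone under 4, at -6.99 to -3.67 points.

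Among open fragments alone, no difference from the fragments in 1 to 5 lists was detected. Among the 1847 common fragments in either FAIRE list, 14.1% ± 0.992 lay in the Notch-dependent one, against 14.4% ± 0.516 of the open fragments in 1 to 5 lists and 14.4% of all open fragments. The difference was -0.292 points, with a 95% interval from -2.15 to 1.57 (n = 511 blocks, adjusted p = 0.758). The open common fragments lay below the 171 open fragments in the 4 N1 lists alone, of which 23.98% ± 3.57 were Notch-dependent, with a difference of -9.85 ± 3.46 points (n = 511 blocks, adjusted p = 0.0072). With FAIRE regions from the median score up, that difference was -6.36 points (n = 487 blocks, adjusted p = 0.172), and with Mef2c/MAML ignored it was -2.34 points (n = 507 blocks, adjusted p = 0.0882). Among the 2396 Notch-dependent FAIRE regions, 240 held a common fragment, 10.02%, against 8.35% of the 17083 other FAIRE regions, a difference of 1.67 ± 0.704 points (n = 523 blocks, adjusted p = 0.0249). At equal region length the difference was 3.29 ± 0.687 points (n = 523 blocks, adjusted p = 3.82e-06). With overlap of at least 50% of the smaller region the difference without a length term was 0.923 points (n = 523 blocks, adjusted p = 0.195), and with presence taken from the list median up it was 0.692 points (adjusted p = 0.158).

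N1 ChIP was higher in common fragments than in fragments of 1 to 5 lists, but lower than in those of exactly 5. In all, 84 common fragments matched a ChIP region, 2.89% ± 0.424, where 1.41% of all fragments did. The share was 1.37% ± 0.0952 for fragments in 1 to 5 lists, 1.53 ± 0.381 points less (n = 538 blocks, adjusted p = 0.000159). By number of lists it was 0.738% ± 0.0598 for 1, 1.48% ± 0.116 for 2, 2.53% ± 0.265 for 3, 3.29% ± 0.351 for 4, 4.71% ± 0.427 for 5 and 2.89% ± 0.424 for 6. With both Mef2c lists it was 0.201% ± 0.0617 with no N1 list, 0.412% ± 0.1404 with 1, 0.437% ± 0.148 with 2, 0.873% ± 0.198 with 3 and 2.89% ± 0.424 with all 4. It was 4.71% ± 0.427 for fragments in exactly 5 lists and 8.12% ± 1.98 for those in the 4 N1 lists alone, so that the common fragments lay below both. The differences were -1.82 ± 0.46 points (n = 538 blocks, adjusted p = 0.000172) and -5.23 ± 1.91 points (adjusted p = 0.00933). When a score at or above the list median was required for presence, the difference from fragments in 1 to 5 lists was 0.424 points (n = 534 blocks, adjusted p = 0.439) and that from the N1 lists alone -4.48 points (adjusted p = 0.0901). With the ChIP regions whose input was off its fixed value, the 3 differences were 0.463, -0.41 and -0.492 points, and none passed (n = 538 blocks, adjusted p = 0.0613, 0.16 and 0.485). Of the 84 fragments, 67 (79.8%) were open by total FAIRE and 2 (2.38%) lay in Notch-dependent FAIRE, against 61.8% and 1.62% of all 1361 fragments in ChIP. For the 210 ChIP fragments in exactly 5 lists the shares were 71.9% and 2.38%. All 84 ChIP regions had exactly the ends of the fragment, and the ratio of ChIP to input had a median of 15.1 and ran from 10.1 to 76.1. For 62 of the 84 the input stood at its fixed lowest value of 0.1. ChIP comes from 1 library and 1 input, with no replicate.

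The low ChIP share went with the Mef2c/p300 list. Common fragments lay in ChIP in 2.89% ± 0.424 of cases, against 7.99% ± 0.736 of the 2415 fragments that lacked only Mef2c/p300, a difference of -5.10 ± 0.69 points (95% interval -6.45 to -3.75), and of -5.19 ± 0.744 points at equal fragment length. They exceeded by 2.18 ± 0.457 points the 1395 fragments that lacked only N1/MAML, of which 0.717% ± 0.218 lay in ChIP (95% interval 1.28 to 3.07). Of the 91 fragments that lacked only Mef2c/MAML, 0 lay in ChIP, which allows a share of up to 3.30%. These classes were formed after the values were seen and carry no p. With Mef2c/p300 ignored, the fragments in the other 5 lists numbered 5319 and their ChIP share exceeded that of fragments in 4 of those 5 by 1.56 points (n = 538 blocks, adjusted p = 0.00273), the opposite sign. Mef2c/p300 comes from 1 library, so the complex and that library cannot be told apart.

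**Figure D4:**
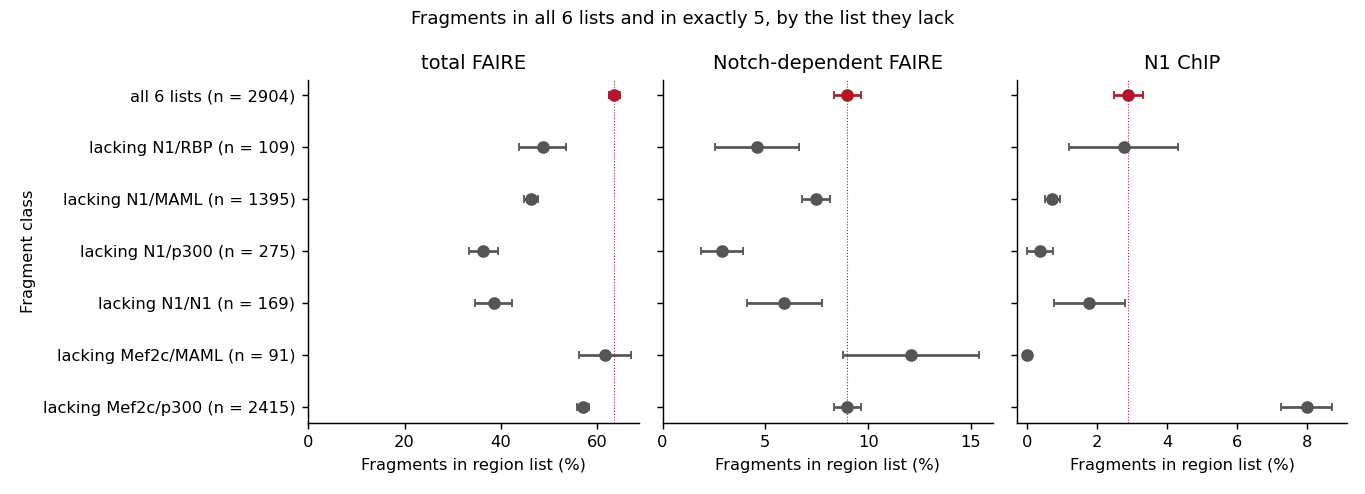
Percent of fragments that overlap total FAIRE (left), Notch-dependent FAIRE (middle) or ChIP of N1 (right) for the fragments in all 6 lists (red, top row, dotted line) and for fragments in exactly 5, by the list they lack; bars are SE over 5 Mb blocks, and the class with 0 of 91 in ChIP has none. Total FAIRE is highest in the top row (63.5%), and ChIP is highest for fragments that lack Mef2c/p300 (7.99%, against 2.89% in the top row).

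Openness was compared in the same way. Common fragments exceeded those lacking N1/p300 by 27.2 ± 3.16 points in total FAIRE, those lacking N1/N1 by 25.1 ± 3.996 points, those lacking N1/MAML by 17.4 ± 1.67 points and those lacking N1/RBP by 14.9 ± 4.97 points (95% interval 5.16 to 24.7). They exceeded those lacking Mef2c/p300 by 6.56 ± 1.34 points (95% interval 3.94 to 9.17). The 91 fragments lacking Mef2c/MAML were open in 61.5% ± 5.34 of cases, with a difference of 1.99 points and a 95% interval from -8.59 to 12.6. In Notch-dependent FAIRE the common fragments exceeded those lacking N1/p300 by 6.08 ± 1.22 points (8.99% against 2.91%), and differed from those lacking Mef2c/p300 by 0.0021 points (95% interval -1.66 to 1.66).

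Among the common fragments themselves, openness followed the scores. In the upper 25% by mean percentile, 76.3% ± 1.68 of 726 fragments were open, against 52.1% ± 2.06 of 726 in the lower 25%, a difference of 24.2 ± 2.40 points (n = 387 blocks, adjusted p = 2.82e-23). Notch-dependent FAIRE held 11.4% ± 1.31 of the upper and 5.92% ± 0.85 of the lower 25%, 5.51 ± 1.49 points apart (n = 387 blocks, adjusted p = 0.000465). With the lowest percentile over the 6 lists in place of the mean, that difference was 2.67 points and did not pass (n = 389 blocks, adjusted p = 0.0778). N1 ChIP held 2.20% ± 0.586 of the upper and 2.48% ± 0.621 of the lower 25%, a difference of -0.275 points with a 95% interval from -1.77 to 1.22 (n = 387 blocks, adjusted p = 0.753).

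The lists differed in what their scores followed. Ranked by N1/N1 score, 79.2% of the upper and 49.1% of the lower 25% of common fragments were open, 30.1 ± 2.44 points apart. Ranked by N1/p300 they were 75.6% and 52.0%, and by Mef2c/p300 62.6% and 61.3%, a difference of 1.32 points with a 95% interval from -3.90 to 6.54. For Notch-dependent FAIRE, N1/p300 gave 14.9% in the upper and 3.98% in the lower 25%, 10.9 ± 1.503 points apart, and the intervals of N1/MAML, N1/N1 and both Mef2c lists included 0. For ChIP, the upper 25% by N1/RBP held 4.24% and the lower 1.37%, while Mef2c/p300 ran the other way, with 1.10% in the upper and 5.62% in the lower 25% (difference -4.53, 95% interval -6.69 to -2.36). These 18 differences are given with their intervals and without p.

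**Figure D5:**
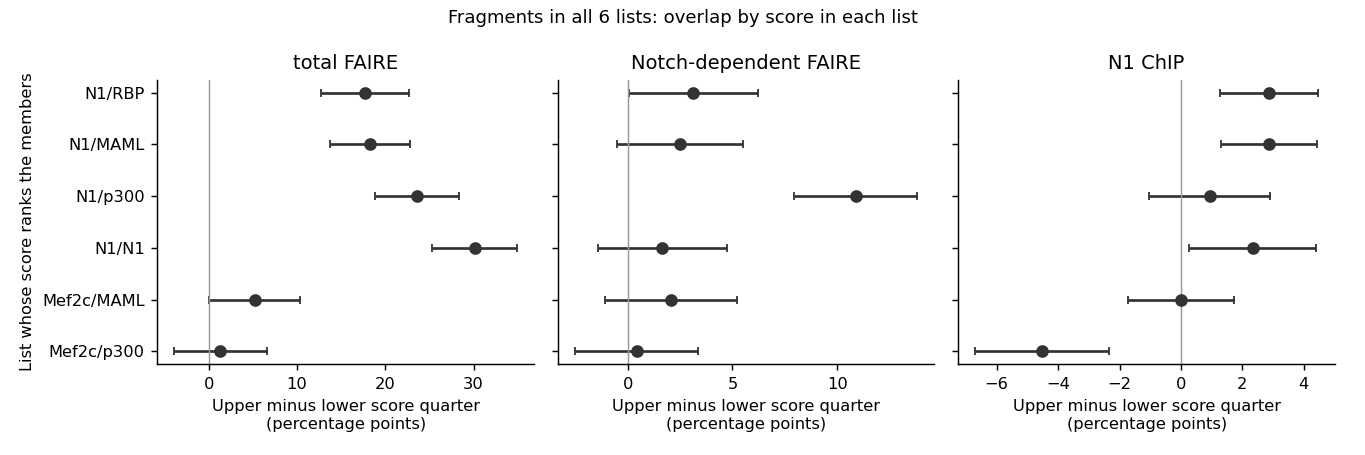
Difference between the upper and lower 25% of the 2904 common fragments, ranked by the score in each list (rows), in the percent that overlap total FAIRE, Notch-dependent FAIRE and N1 ChIP; points are differences in percentage points, bars are 95% intervals from errors clustered on 5 Mb blocks, and the vertical line is 0. N1/N1 leads for total FAIRE (30.1 points), N1/p300 for Notch-dependent FAIRE (10.9 points), and Mef2c/p300 alone lies below 0 with its whole interval, for ChIP (-4.53 points).

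Where N1 scores led, common fragments were more open. The 726 common fragments whose N1 percentiles most exceeded their Mef2c percentiles lay in total FAIRE in 69.8% ± 1.72 of cases and in ChIP in 6.20% ± 1.17, against 50.8% ± 2.16 and 0.964% ± 0.398 for the 726 with the opposite balance. The differences were 19.01 ± 2.61 and 5.23 ± 1.22 points, with 95% intervals from 13.9 to 24.1 and from 2.84 to 7.63. For Notch-dependent FAIRE the difference was 3.17 points, with an interval from -0.0152 to 6.35.

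Common fragments spanned a narrower range of length than the fragments in 1 to 5 lists. Their median was 551 bp and 5th and 95th percentiles were 384 and 833.85 bp, against 599, 332 and 1794 bp for fragments in 1 to 5 lists. Only 19 (0.654%) exceeded 1 kb, against 17.3% of the fragments in 1 to 5 lists. Other classes were similar: fragments in exactly 5 lists had 5th and 95th percentiles of 343 and 863.35 bp with 0.876% over 1 kb, and the 5480 in both Mef2c lists and no N1 list had 382 and 800.05 bp with 0.401%. The lists themselves differed in length. Among fragments in exactly 5 lists, the median ran from 409 bp for those lacking N1/RBP to 766 bp for those lacking Mef2c/MAML. How far length decides presence in a list was not tested, so the length differences that follow cannot be separated from the rule. On the log2 scale common fragments were shorter than the fragments in 1 to 5 lists, with a mean difference of -0.22 ± 0.01 (n = 538 blocks, adjusted p = 3.79e-199). They were longer by 0.04 ± 0.01 than fragments in 5 lists (median 534.5 bp, n = 538 blocks, adjusted p = 4.8e-05), and shorter than those in the N1 lists alone (median 633 bp, difference -0.24 ± 0.04, adjusted p = 3.42e-10). The difference from fragments in 5 lists turned to -0.08 with Mef2c/p300 ignored and to -0.02 with Mef2c/MAML ignored, and did not pass at 0.01 with N1/p300 ignored (n = 537 blocks, adjusted p = 0.354). The difference from the N1 lists alone turned to 0.18 with Mef2c/MAML ignored. Fragments of 500 to 600 bp were common to all 6 lists in 5.72% of cases, against 1.61% of those up to 400 bp and 0.344% of those over 900 bp. Of fragments of any length, 2904 of 96405 were common.

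Openness of common fragments ran from 61.5% to 69.0% over 6 classes of length. Total FAIRE held 69.0% of common fragments up to 400 bp, against 65.7% of those in 5 lists, and 67.1% of the 70 over 900 bp, against 60.4%. It held 61.5% of common fragments of 400 to 500 bp, 63.3% of those of 500 to 600 bp, 62.6% of those of 600 to 700 bp and 65.3% of those of 700 to 900 bp. In these 4 middle classes it held 48.6%, 47.4%, 47.5% and 49.7% of fragments in 5 lists. By value the gap was smaller at both ends of the range than between them. The longest class rests on 70 common fragments and 154 in 5 lists. These shares have no error, and the change of the gap with length was not tested. The longest common fragment, chr15:10509171-10512346, spans 3176 bp and lay outside FAIRE and ChIP, with scores of 784 in N1/MAML and 135 in Mef2c/p300. The next in length, chr8:127764961-127767604, spans 2644 bp, scored between 414 and 697 in the 6 lists and lay in a FAIRE region with a MACS score of 64.95.

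Common fragments were often next to other marked fragments. Of the 2904, 1610 (55.4%) touched a marked fragment on at least 1 side, where 28.2% of all 96405 fragments did. The share was 48.1% for fragments in 5 lists, 55.3% for those in the N1 lists alone and 20.9% for those in 1 list. The neighbour was itself common for 292 (10.1%). Over the 5808 sides, 66.9% had no marked neighbour, 8.11% a neighbour in 1 list, 5.34% a neighbour in 5 lists and 5.20% one in all 6. The lists that chose the fragments also give these values, so they carry no test. Common fragments that touched another common one lay in total FAIRE in 78.1% ± 3.34 of cases, those that touched other marked fragments only in 64.4% ± 1.60, and those that touched none in 59.4% ± 1.46.

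Most common fragments still stood alone. With gaps of up to 5000 bp joined, the 2904 fragments formed 2480 runs, of which 2146 held 1 fragment and 14 held 4 or more. Runs of at least 2 took in 758 fragments (26.1%). By the same gap, 22.9% of the 4454 fragments in 5 lists had another of their class nearby. Within 50 kb the order was the other way, with 45.7% of common fragments and 49.0% of those in 5 lists, and the median gap was 62383.5 bp for common fragments and 52290 bp for those in 5 lists. The classes differ in size, which bears on these gaps. The run with the most was chr11:96597494-96607017, with 6 common fragments over 9524 bp, of which 2 were open and 0 Notch-dependent. Next were 4 runs of 5. In chr8:118288496-118296480 all 5 fragments were open and 2 Notch-dependent, and in chr8:109494300-109502743 there were 4 open and 3 Notch-dependent. In chr19:5842077-5850175 all 5 were open and 1 lay in ChIP, and in chr6:52176423-52190529 there were 2 open.

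Common fragments were spread over the genome, with more in some blocks than in others. They occurred in 450 of the 538 blocks of 5 Mb that held any fragment, with a median of 5 in those blocks, and 96 blocks held 50% of them. The number of blocks holding 50% of all marked fragments was not counted. Over all blocks, 2904 of 96405 marked fragments were common. The block with the most, from 140 to 145 Mb on chromosome 5, held 47 common fragments among 691 (6.80%). It was followed by 125 to 130 Mb on chromosome 8 with 41 of 725 and 95 to 100 Mb on chromosome 3 with 40 of 635. By chromosome, the common share of marked fragments ran from 3.75% on chromosome 19 and 3.70% on chromosome 10 to 2.14% on chromosome 14 and 1.67% on the X chromosome, where 45 of 2693 were common. The copy number of these chromosomes in mK4 cells was not used. Openness of common fragments was 76.2% on chromosome 19, 72.8% on chromosome 8 and 45.7% on chromosome 15.

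The common fragments that lay in both Notch-dependent FAIRE and N1 ChIP numbered 2. The fragment chr17:13820575-13820990 scored 371 in N1/RBP, 601 in N1/MAML, 547 in N1/p300, 469 in N1/N1, 519 in Mef2c/MAML and 148 in Mef2c/p300. Its ChIP ratio was 12.3, and the FAIRE region around it, chr17:13819161-13821477, had MACS scores of 286.42 in the Notch-dependent and 703.98 in the total list. The fragment chr8:114269277-114269953 scored 583, 319, 637, 495, 331 and 142 in the same order of lists, with a ChIP ratio of 11.8 and MACS scores of 257.17 and 755.17. In both, the Mef2c/p300 score was the lowest of the 6 and lay below that list's median of 286.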

How the data were processed

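The values are 9 region lists of the series, each pooled over its libraries, so no value per library, no replicate error and no depth is known. In the 6 SpDamID lists the authors deposited 1 score per fragment relative to Dam, at confidence 0.999 or more per the file headers, on an unstated scale. Lists were matched to complexes by the initials of the 2 proteins. The 2 FAIRE lists hold the deposited MACS score of peaks called in Galaxy, per the file headers. For each ChIP region the authors deposited a signal for ChIP, a signal for input and their ratio, which is 10.0097 or more. The build is mm9, per the submitters' processing notes; aligners: not given in the sources used here.

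Positions were taken as 1-based, after adding 1 base to FAIRE starts. Fragments were joined by identical ends, and overlap meant 1 bp or more. Percentiles are ranks of the score within a list. Shares and differences came from linear models over all fragments or FAIRE regions with sandwich errors clustered on 5 Mb blocks (Python 3.11.15, numpy 2.4.6, pandas 2.3.3, scipy 1.17.1), with two-sided normal p-values adjusted by Benjamini-Hochberg over 21 tests, called at 0.05. The overlap functions and the fit were tested on simulated data. The members, classes and tests were chosen with earlier results of these data known. Named fragments are the 10 with the highest mean percentile, the 6 with the highest lowest percentile, the longest, the lowest, the 5 fullest runs (gaps of up to 5000 bp) and those in Notch-dependent FAIRE and ChIP. Genes and sequences are not given, since no genome or annotation of mm9 was used here. Alternatives are given in the closing section.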

Additional observations from a re-analysis of the deposited data

How the results depend on the processing

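No paired analysis was possible because every list pools its libraries and no column carries a replicate number. Of 259 alternative values with a test, 220 had the sign and the side of the threshold of the reported one. Some of these did not move at all. ChIP differences were unchanged with 50% overlap or the fragment centre, and blocks of 20 Mb alter only the errors. The differences in total FAIRE from fragments in 1 to 5 and in exactly 5 lists kept sign and side under all 16 alternatives each, between 32.6 and 48.0 points and between 8.29 and 15.4 points. All differences below are common fragments minus the class named, in percentage points unless a log2 scale is given, and the cause was not tested.

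With presence taken from scores at the list median up, 1127 fragments were common. ChIP then differed by 0.424 from fragments in 1 to 5 lists and by -4.48 from the N1 lists alone, neither past the threshold, and Notch-dependent FAIRE by -6.99 from the N1 lists alone, which passed. The FAIRE score difference from regions with no fragment was 0.0805 (log2) and passed, as it did on autosomes, 0.0528, and without the length term, 0.47. The difference between Notch-dependent and other FAIRE regions was 0.692 here and 0.923 by 50% overlap, without passing. Among open fragments, the Notch-dependent share against fragments in 1 to 5 lists turned to 0.504 in the common range of length (405 to 786 bp), 0.116 with touching fragments merged, 0.117 without the longest FAIRE regions, 0.415 with FAIRE regions from the median score up, 0.234 with N1/MAML ignored and 0.565 with Mef2c/p300 ignored, none past the threshold. In the common range of length it turned to 0.0164 against fragments in 5 lists, Notch-dependent FAIRE passed at 2.10 against these, and ChIP no longer passed at -2.88 against the N1 lists alone.

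Leaving a list out of the rule mattered most for Mef2c/p300: 5319 fragments were then common. ChIP turned to 1.56 against fragments in 5 lists (here 4 of the other 5) and no longer passed at -1.12 against the N1 lists alone. Notch-dependent FAIRE passed at 2.22 and -3.67 against these classes, and log2 length turned to -0.0814. With Mef2c/MAML ignored, log2 length turned to -0.0206 against fragments in 5 lists and to 0.18 against the N1 lists alone, and the Notch-dependent share of open fragments was -2.34 and no longer passed. With N1/MAML or N1/p300 ignored, Notch-dependent FAIRE passed at 1.34 and 1.69 against fragments in 5 lists, and log2 length was 0.00959 without N1/p300, below the threshold.

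With FAIRE regions from the median score up, Notch-dependent FAIRE passed at 1.26 against fragments in 5 lists, and the open share no longer passed at -6.36 against the N1 lists alone. Without the longest FAIRE regions, total FAIRE no longer passed at 4.12 against the N1 lists alone and Notch-dependent FAIRE passed at -3.74. With ChIP regions whose input was off its fixed value, ChIP differences were 0.463, -0.41 and -0.492, none past the threshold. At equal mean N1 score percentile, an alternative chosen after seeing the data, total FAIRE was 4.45, no longer past it, and Notch-dependent FAIRE -5.88, past it. By medians, log2 length differed by -0.12 from fragments in 1 to 5 lists. Within the common fragments, Notch-dependent FAIRE differed by 2.67 by lowest percentile and no longer passed, and ChIP by 0.413 with the upper 50% set against the lower 50%. No library can be left out, and depth is unknown.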
